A study of Homo sapiens with 2 samples.

Results

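PAX5 occupancy was examined at 7 genes of the myeloid lineage, SPI1, CEBPA, CSF1R, CSF3R, CD33, FCER1G and MPO, grouped here as genes that are active in myeloid cells and silent or held low in B-lymphocytes. A peak was assigned to a gene when its summit lay in the gene's window on hg19 or in a flank of 10 kb on either side. The windows with flanks added up to 280 kb, from 24 kb at CEBPA to 80 kb at CSF1R, and held 8 of the 21361 peaks in the list. The rule uses the position of a summit and not the strength of its peak.

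The data come from NALM6, a line grown from a human B-cell precursor leukaemia. The cells were left untreated and kept for 4 days in RPMI without phenol red, supplemented with 10% serum and 2 mM glutamine. The study compared 1 chromatin immunoprecipitation (ChIP-seq) sample, for which the antibody was an Abcam product against PAX5, with 1 input control that received no antibody, for which the labels also give NALM6 and whose title carries the unexplained name RXL. The peak list rests on 46190180 ChIP tags, pooled before peaks were called, and 25416858 tags of a combined control. With 1 sample of each kind there are no replicates, so no difference was tested and all intervals cover counting error only. RNA was not measured, and whether the 7 genes are silent in these cells is not known from these data.

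PAX5 is the transcription factor that commits lymphoid progenitors to the B lineage and keeps them there. It activates B-cell genes and, together with corepressors, holds down genes of other lineages, among which Csf1r is a well-studied target in mice. The transcription factors PU.1, encoded by SPI1, and C/EBPα, encoded by CEBPA, direct progenitors towards macrophages and granulocytes. PU.1 is also made in B-cells, at a lower level than in myeloid cells, so SPI1 belongs to the genes held low and not to those shut off.

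RefSeq promoters (GRCh38.p14) were at hand for 5 of the 7 genes, with 7 starts in all, and none was used for SPI1 and MPO. The 250 bases before the start are shown for FCER1G, where the strongest of the 8 peaks lay inside the gene, for the inner of the 2 starts of CSF1R, and for CEBPA and CD33, the genes without a peak. Capitals mark TGTGGT, the core of RUNX sites, and TTNCNNAA, a loose form of the C/EBP site. The stretches are chr1:161215045-161215294 (plus strand), chr5:150086555-150086804 (minus strand), chr19:33302535-33302784 (minus strand) and chr19:51224830-51225079 (plus strand), on a build other than that of the peaks.
FCER1G: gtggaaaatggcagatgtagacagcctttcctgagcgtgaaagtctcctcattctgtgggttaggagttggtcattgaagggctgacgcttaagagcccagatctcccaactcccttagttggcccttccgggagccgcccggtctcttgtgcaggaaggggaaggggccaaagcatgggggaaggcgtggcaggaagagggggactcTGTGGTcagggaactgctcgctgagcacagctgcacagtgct
CSF1R: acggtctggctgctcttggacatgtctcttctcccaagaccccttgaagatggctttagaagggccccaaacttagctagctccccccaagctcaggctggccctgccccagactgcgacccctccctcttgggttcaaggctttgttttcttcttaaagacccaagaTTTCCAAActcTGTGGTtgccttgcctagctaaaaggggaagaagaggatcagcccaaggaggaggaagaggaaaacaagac
CEBPA: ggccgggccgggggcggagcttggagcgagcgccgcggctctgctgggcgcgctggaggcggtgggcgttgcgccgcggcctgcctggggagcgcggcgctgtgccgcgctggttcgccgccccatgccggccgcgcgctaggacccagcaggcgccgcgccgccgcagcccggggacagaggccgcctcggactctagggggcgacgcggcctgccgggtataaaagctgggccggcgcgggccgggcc
CD33: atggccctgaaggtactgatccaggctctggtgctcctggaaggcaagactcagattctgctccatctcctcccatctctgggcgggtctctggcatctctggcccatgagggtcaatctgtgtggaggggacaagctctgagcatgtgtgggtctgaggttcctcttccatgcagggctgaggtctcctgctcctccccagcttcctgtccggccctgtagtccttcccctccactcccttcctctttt

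The promoters were searched on both strands over 300 bases, with 50 bases after the start included. FCER1G held TGTGGT from 42 bases before its start. The inner CSF1R promoter held TGTGGT from 71 bases and TTNCNNAA from 82 bases before the start, next to each other but not overlapping. CSF3R, not printed here, also held both motifs. The outer of its 2 promoters held TTNCNNAA from 223, 206 and 36 bases before the start, and TGTGGT from 14 bases after it. The inner CSF3R promoter held TTNCNNAA from 34 bases after its start. No match to any searched motif was found in the promoters of CEBPA and CD33 printed here. TGTGGT was in 3 of the 7 promoters, against 13.1% of all 35093 promoters searched, and TTNCNNAA in 3 of the 7, against 36.8% of all. The short forms of the PAX5 site, GCGTGAC and the wider GCNTGAC that contains it, were in none of the 7, against 2.52% and 10.5% of all promoters. The PU.1 forms AGGAAGTG and GAGGAAGT, which can overlap each other, and a palindromic form of the EBF1 site were also in none of the 7, against 3.65%, 2.59% and 1.21% of all. Looser forms of the PU.1 site were not searched, so these promoters may still hold such sites. The promoter of CEBPA stood out in base composition, with 81.2% G and C in the printed stretch, while CSF1R had 53.2%, FCER1G 58.0% and CD33 58.8%, and the median of all promoters was 58%. These matches describe letters in the reference sequence and do not show sites that are bound.

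Of the 7 genes, 5 had at least 1 PAX5 peak in the window or flank. SPI1 had 3, MPO had 2, and CSF1R, CSF3R and FCER1G had 1 each, while CEBPA and CD33 had none. For scale, 17.1% of 73510 bins of 40 kb, the mean length of a window with flanks, held a summit on chromosomes 1 to 22 and X, gene-poor stretches included. By position, 5 of the 8 summits lay inside the gene windows of SPI1, CSF1R and FCER1G, 2 lay upstream of MPO and 1 downstream of CSF3R. Per length, peaks in the gene windows alone were 4.93 times as dense as over all chromosomes. With flanks the ratio was 3.94 (exact Poisson interval 1.70 to 7.77). The peaks in the gene windows are part of the 8, so comparing these ratios cannot show whether gene windows are preferred over flanks. Counted from the window edge where transcription starts, which is rounded to 1 kb, SPI1 and MPO had a summit within 2 kb. CSF1R and CSF3R, the genes for the receptors of the macrophage and granulocyte colony-stimulating factors, had none there, nor did FCER1G. The share of all gene starts with a summit this near was not computed, so these counts have no background beside them.

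**Figure D1:**
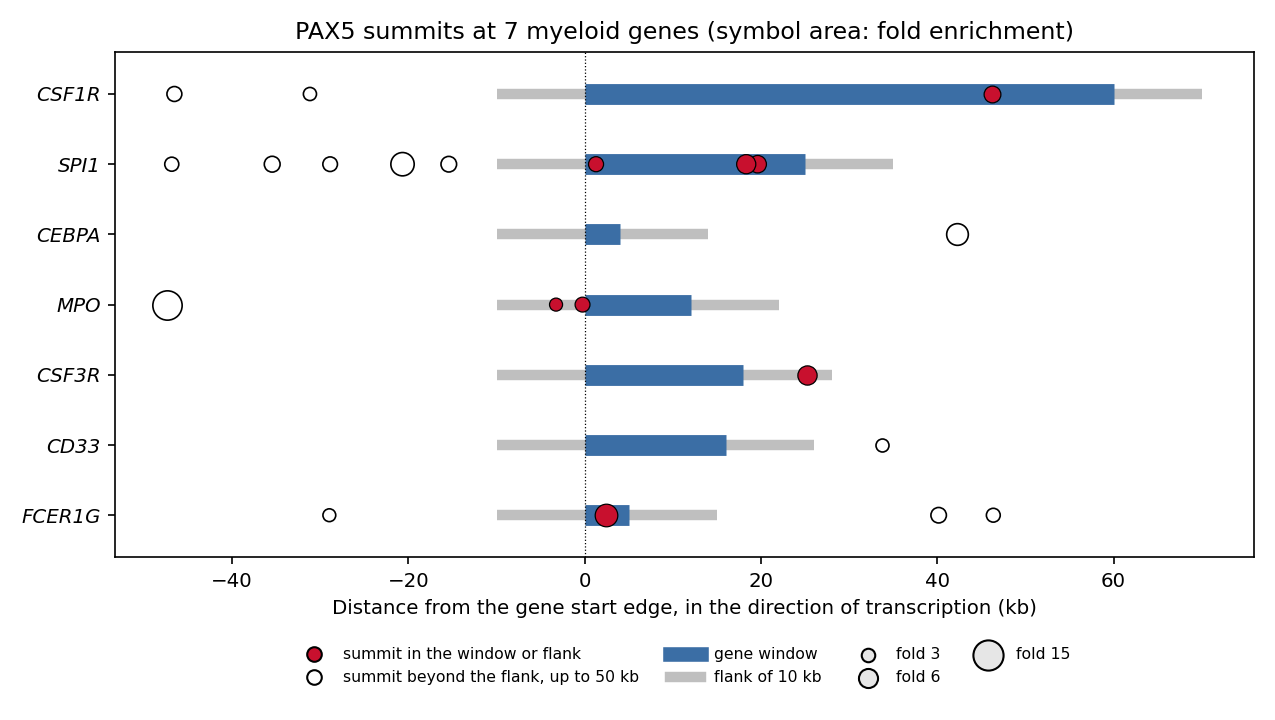
Position of PAX5 summits at the 7 genes, in kb from the window edge at which the gene starts and in the direction of transcription. Blue bars are gene windows, grey bars the flanks of 10 kb, red circles the 8 summits assigned to the genes, open circles the 13 further summits up to 50 kb from the windows, and the area of a circle is its fold enrichment. SPI1 has 3 red circles, CEBPA and CD33 have none, and the largest open circle, with a fold of 14.1, lies upstream of MPO.

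The 8 peaks were moderate in strength. The fold enrichment, which is the authors' own value and sets ChIP signal at the depth of the input over the local input background, ranged from 2.80 to 8.41 with a median of 4.83, and that of all 21361 peaks had a median of 3.89. A fold of at least 5 was reached by 4 of the 8 peaks (50%, 95% Wilson interval 21.5 to 78.5%), against 25.0% of all peaks, which lies within that interval. A fold of at least 10 was reached by 0 of the 8, against 1.72% of all peaks, and 0 of 8 allows a share of up to 32.4% (Wilson). The 8 summits held a median of 61 ChIP reads, as did the summits of the whole list. The median input background was 9.0 reads at the 8 peaks and 8.0 reads at all peaks. The median width was 500.5 bp at the 8 peaks and 383 bp over the whole list. A −log10 q of at least 10 was reached by 4 of the 8 peaks, against 37.1% of all peaks.

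**Figure D2:**
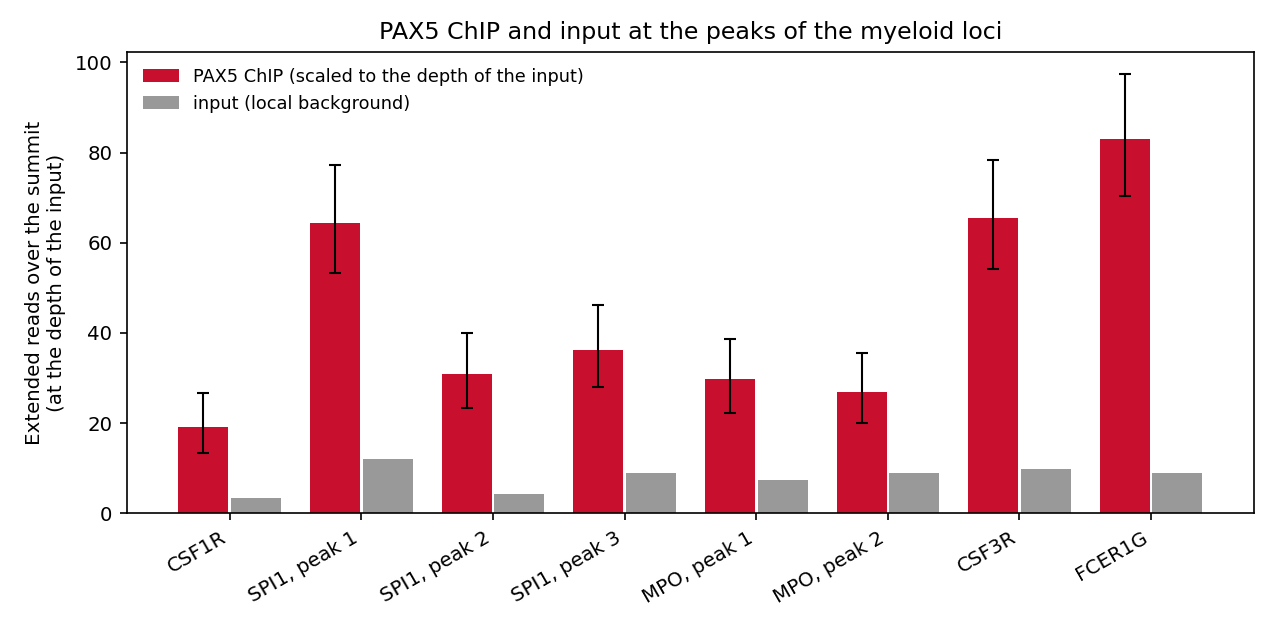
Extended reads over the summits of the 8 peaks, with PAX5 ChIP in red, scaled to the depth of the input, and the local input background in grey. Error bars are exact Poisson 95% intervals of the ChIP reads, and the input background has no error bar. The ChIP bar runs from 19.3 at CSF1R to 83.1 at FCER1G, and the input bar from 3.38 at CSF1R to 12.0 at the first SPI1 peak.

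SPI1 was the gene with the most summits, all 3 of them inside its window. A pair lay towards the gene's end. The first of the pair, on chromosome 11 from 47381178 to 47381734, had 117 ChIP reads over the summit (96.8 to 140, exact Poisson 95% interval), which is 64.4 at the depth of the input, over an input background of 12.0. Its fold was 5.03 (4.17 to 6.01, with the background taken as fixed here and below). The second, from 47382491 to 47382824, had 56 reads (42.3 to 72.7), 30.8 at the depth of the input, over a background of 4.27 and a fold of 6.03 (4.60 to 7.78). Their summits were 1298 bp apart. The first had more reads but the lower fold, over the higher input background, and the intervals of the folds overlapped.

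The remaining SPI1 peak, from 47399517 to 47400061, lay nearest the start edge of the window. Its summit was 1282 bp inside that edge and 17036 bp from the nearer summit of the pair. It held 66 reads (51.0 to 84.0), 36.3 at the depth of the input, over a background of 9.0, with a fold of 3.73 (2.91 to 4.72). It was the weakest of the 3 by fold, below the median of all peaks, and its interval overlapped those of both others.

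Upstream of SPI1, PAX5 peaks continued beyond the flank. Of the 13 further summits within 50 kb of any window, 5 lay on this side of SPI1, towards the zinc transporter gene SLC39A13, its neighbour in the gene table. The nearest, on chromosome 11 from 47416203 to 47416707, was 15.4 kb from the window edge and 5.42 kb outside the flank, with 71 reads over a background of 9.0 and a fold of 4.01 (3.15 to 5.03). The next, from 47421078 to 47422528, was 20.7 kb from the edge and had 161 reads (137 to 188) over 9.0 and a fold of 8.96 (7.64 to 10.4). It was the strongest peak in the 1 Mb around SPI1. Its lower bound was above the upper bounds of the first peak of the pair and of the peak near the start edge, but not above that of the second peak of the pair (7.78). An enhancer far upstream of the SPI1 start is known to control the gene in mouse and human cells. Whether either peak lies on it was not examined, since no hg19 annotation was used.

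CEBPA had no PAX5 peak in its window or flanks. The nearest summit was 38.2 kb downstream of the window, in a peak at 33751525 to 33752002 on chromosome 19. That peak had 88 reads (70.6 to 108), 5.40 reads of background and a fold of 7.72 (6.22 to 9.48), rank 1154 of the list. It was the strongest in the 1 Mb around CEBPA, which held 9 peaks. In the gene table the next coding gene on that side is SLC7A10, an amino acid transporter gene, and on the other side CEBPG, which encodes another C/EBP protein.

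CSF1R carried 1 peak with few reads far inside the gene and none near its outer start edge. Its inner start was not placed on hg19. On GRCh38.p14 the 250 bases before its starts cover 150113366 to 150113615 (outer) and 150086555 to 150086804 (inner). These starts are closer together than the 46189 bp from the outer start edge to the summit. With the same spacing on hg19, the summit would lie past the inner start and not at it. The peak spanned 149446708 to 149446970 on chromosome 5 and had 35 reads (24.4 to 48.7), 19.3 at the depth of the input, over an input background of 3.38. Its fold was 4.63 (3.29 to 6.35), rank 6691 of 21361. Few peaks of the list had fewer reads (5.73%), and few had a lower input background (5.13%), so its fold above the median rests on a small number of reads in both libraries. The summit was 46189 bp inside the outer start edge of a window of 60 kb. By fold it was the highest of the 13 peaks in the 1 Mb around the gene. The nearest summit outside was 31.2 kb upstream, towards PDGFRB, with 29 reads and a fold of 2.83 (1.95 to 3.99).

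CSF3R had its single peak beyond the end of the gene. It lay on chromosome 1 from 36923379 to 36924029, with the summit 7248 bp downstream of the window and 2752 bp inside the border of the flank. The summit held 119 reads (98.6 to 142), 65.5 at the depth of the input, over a background of 9.90, with a fold of 6.10 (5.07 to 7.28), rank 2821. The coding gene next to CSF3R on that side is MRPS15, for a mitochondrial ribosomal protein, and the peak cannot be assigned to either gene by position alone. Without the flank CSF3R had no peak. Its next summit was 74.8 kb downstream of the window.

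FCER1G encodes the γ chain through which Fc receptors of myeloid cells and mast cells signal, and it had the strongest peak of the set. The peak covered 771 bp on chromosome 1 from 161187000 to 161187770, with its summit 2429 bp inside a window of 5 kb. The summit held 151 reads (128 to 177), 83.1 at the depth of the input, over a background of 9.0. Its fold was 8.41 (7.14 to 9.85), rank 812 of 21361 and above 96.2% of the list, with a −log10 q of 45.7. This was also the strongest of the 16 peaks in the surrounding 1 Mb. Outside the flanks, 3 more summits lay within 50 kb, the nearest 29.0 kb upstream with 45 reads and a fold of 2.70.

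CD33, the sialic acid-binding receptor used as a myeloid surface marker, had no peak in its window or flanks. The nearest summit was 17.7 kb downstream of the window and 7.68 kb outside the flank, on the side of SIGLECL1, in a peak at 51761525 to 51761877 on chromosome 19. It had 69 reads (53.7 to 87.3) over an input background of 13.0, with a fold of 2.78 (2.18 to 3.50), rank 19029. The 1 Mb around CD33 held 8 peaks with a highest fold of 8.12.

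MPO, the peroxidase of neutrophil granules, had 2 weak peaks just upstream of its start. The nearer one, on chromosome 17 from 56358976 to 56359431, had its summit 249 bp outside the start edge. It held 54 reads (40.6 to 70.5), 29.7 at the depth of the input, over a background of 7.42, with a fold of 3.65 (2.77 to 4.72). The farther one, from 56362201 to 56362451, had its summit 3253 bp outside the edge and 49 reads (36.3 to 64.8), 27.0 at the depth of the input, over 9.0, with a fold of 2.80 (2.09 to 3.67). Both folds were below the median of all peaks, their intervals overlapped, and the farther peak ranked 18875 of 21361. A much stronger peak, 6055 bp wide, had its summit 47.4 kb upstream of MPO, on the side of TSPOAP1. It had a fold of 14.1 (12.5 to 15.9) and 278 reads (246 to 313), and cannot be assigned to MPO by position alone. For the other 6 genes the nearest summit with a fold of at least 10 was farther away, from 956 kb at CD33 to 18788 kb at SPI1.

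**Figure D3:**
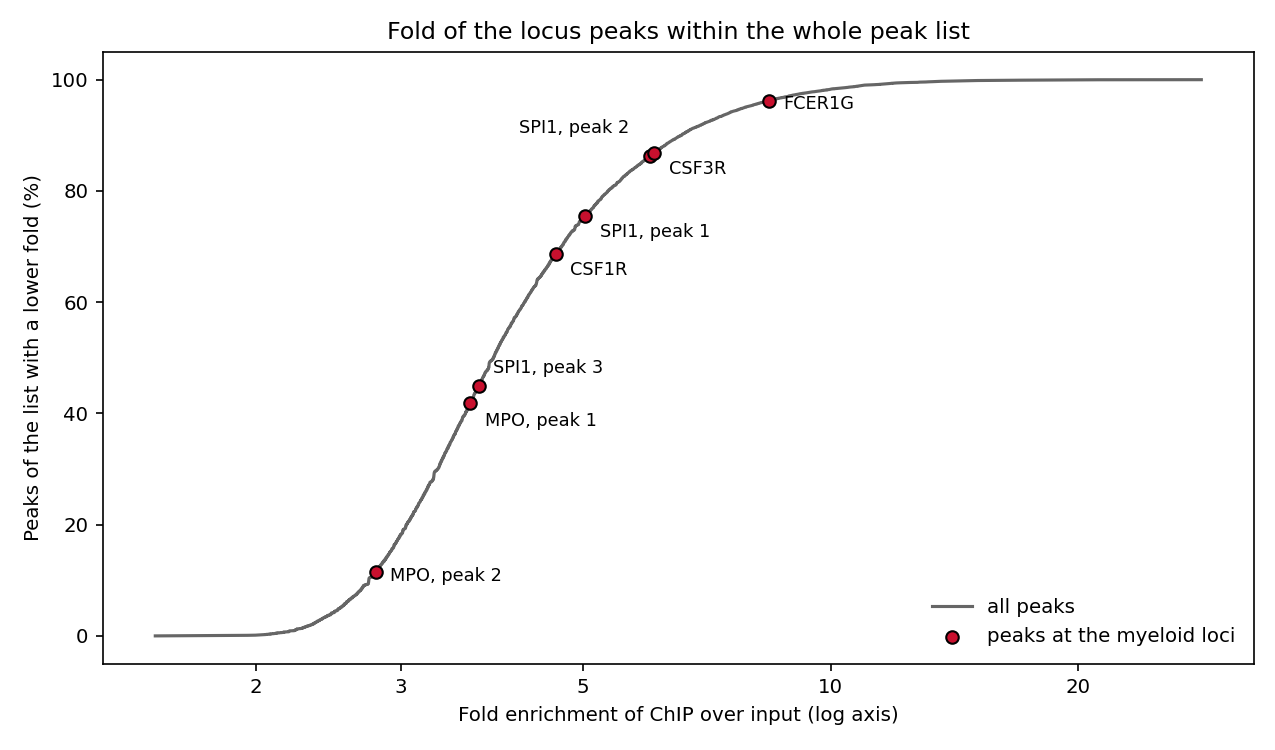
Share of the 21361 peaks with a lower fold enrichment (vertical axis, %) against fold enrichment on a log axis, with all peaks as the grey line and the 8 peaks of the myeloid loci as red points. The points spread over the curve, from 11.4% for the second MPO peak to 96.2% for FCER1G.

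Ordered by fold, the peaks ran from FCER1G through CSF3R, the second and first SPI1 peaks, CSF1R, the SPI1 peak near the start edge and the nearer MPO peak to the farther MPO peak. Neighbours in this order were not separated by their counting intervals. The lower bound at FCER1G (7.14) was above the upper bounds at CSF1R (6.35), at the first SPI1 peak (6.01), the SPI1 peak near the start edge (4.72) and both MPO peaks (4.72 and 3.67), but not above those at CSF3R (7.28) and the second SPI1 peak (7.78). Ordered by ChIP reads, FCER1G and CSF3R again led and CSF1R came last. All 8 peaks were in the authors' cleaned list with identical borders. That list held 21354 peaks, against 21361 in the whole list, so being kept does not set these 8 apart.

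The density of peaks in the windows with flanks was 28.6 per Mb (exact Poisson 95% interval 12.3 to 56.3), against 7.25 per Mb over chromosomes 1 to 22 and X, a ratio of 3.94 (1.70 to 7.77). At the mean density 2.03 peaks would fall in windows of this length. The genes and windows were chosen with earlier results of these data known, so the interval of the ratio is no test of enrichment. The regions around the genes were also dense. In the 1 Mb centred on each gene, with the windows left out, there were 108 peaks, or 16.1 per Mb (13.2 to 19.4), which lies within the interval of the windows. Counted the same way, SPI1 and MPO lay in the densest surroundings, with 25 and 28 peaks outside the window, or 26.2 and 28.9 per Mb. The windows of SPI1, MPO, CSF3R and FCER1G had a higher density than their surroundings. CSF1R had 12.5 peaks per Mb in the window against 13.0 around it, and CEBPA and CD33 had 0 against 9.22 and 8.30. With at most 3 peaks a gene, none of these single-gene differences exceeded the counting error. Chromosome 19, which carries CEBPA and CD33, had 20.2 peaks per Mb as a whole.

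**Figure D4:**
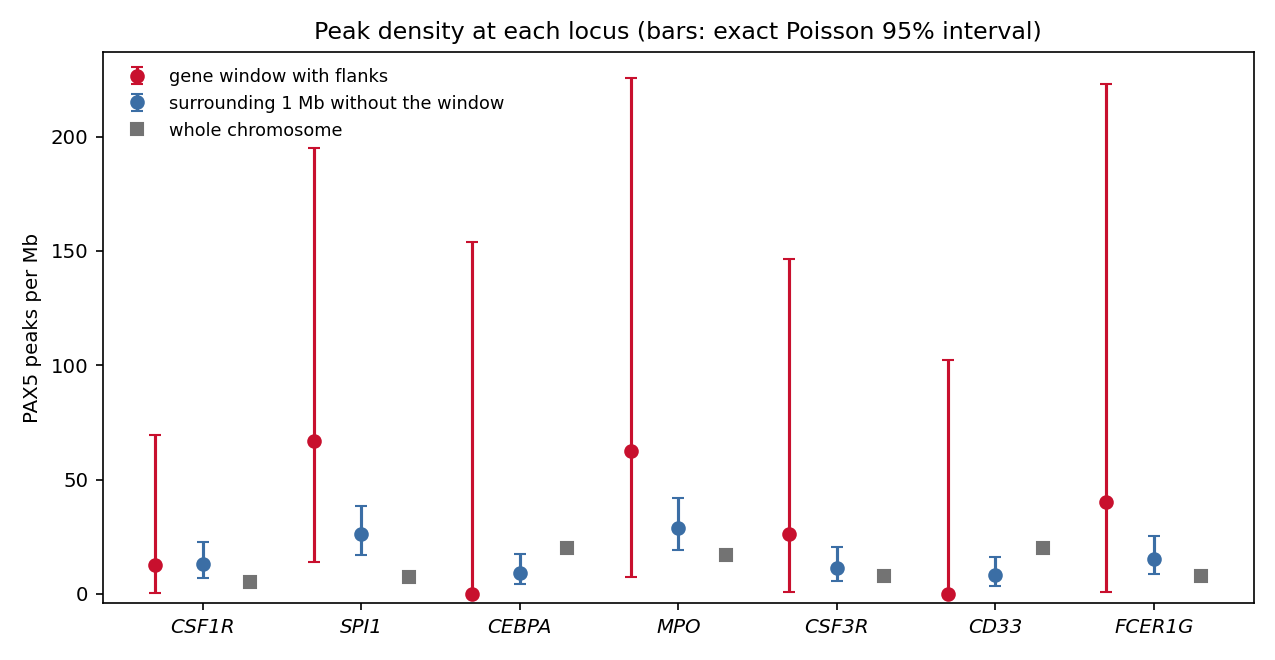
PAX5 peaks per Mb (vertical axis) at each gene, in the window with flanks (red), in the surrounding 1 Mb without that window (blue) and on the whole chromosome (grey squares), with exact Poisson 95% intervals as bars. The red intervals are wide and overlap the blue ones at all 7 genes.

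The lack of a peak at CEBPA and CD33 does not exclude weak binding there. At summits where the input background was at its genome mean of 2.12 reads (within 0.01), the fewest ChIP reads at a called peak were 19, a fold of 3.67. Where the background was close to the list's median of 8.0 reads (within 0.1), the fewest were 37, a fold of 2.37. The list gives no background outside peaks. How weak a site could go uncalled at CEBPA and CD33, or at the start edges of CSF1R and CSF3R, is therefore not known.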

How the data were processed

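The authors aligned reads to hg19 with BWA, as the submitters' processing notes give it. MACS2 2.1.1.20160309 then called peaks from pooled ChIP reads over a combined control, per the file headers, with reads extended to 225 bp, 1 tag per position and a q threshold of 0.05. A pool hides the spread between its libraries. The deposited pileup signal is the count of extended ChIP reads at a summit, scaled by 0.550. The deposited fold is the ratio of pileup to local input background, each plus 1, and the deposited −log10 p and q values come from the caller's Poisson comparison.

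ChIP reads and input background were recovered from pileup and fold. All pileups (100%) were whole reads within 0.005. Positions count from 1. Strands came from the RefSeq promoter table, for SPI1 and MPO from general knowledge. Neighbouring genes are names from a GRCh38.p14 table, and no position was moved between builds. Poisson intervals were exact. On simulated data, the recovery of reads and background returned the true reads, and the true background within 0.05 reads, for 100% of 21361 peaks. The simulation used the same formulas as the recovery. It checks the arithmetic and rounding, and cannot show that the deposited values follow those formulas. All 7 genes, and every peak at them, were named, with the nearest outside peaks. The genes, windows and motifs were chosen with earlier results of these data known. A list of other myeloid genes was not counted, since hg19 annotation was not used here. Values were computed in Python 3.11.15 with pandas 2.3.3, numpy 2.4.6 and scipy 1.17.1, and plotted with matplotlib 3.10.9.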

Additional observations from a re-analysis of the deposited data

How the results depend on the processing

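The number of peaks depended on how far from the genes summits were counted. Without flanks 5 peaks at 3 genes (SPI1, CSF1R and FCER1G) were left of the 8 at 5 genes, and flanks of 50 kb gave 21 peaks with at least 1 at all 7 genes. A stricter threshold, a −log10 q of at least 10, left 4 peaks at 3 genes, and 37.1% of all peaks pass it. No share of bins was computed for flanks of 50 kb or for this threshold, so these counts of genes have no background beside them. Counting any overlap, or merging peaks within 500 bp, gave 8. A summit near the gene start was found at 2 genes within 2 kb, at 1 within 1 kb and at 3 within 5 kb. These counts also have no background share beside them. The start edges are rounded to 1 kb, so the count within 1 kb is uncertain. The density ratio of 3.94 lay between 3.45 (flanks of 50 kb) and 5.29 (stricter threshold). The median fold of 4.83 lay between 3.94 (flanks of 50 kb) and 6.07 (stricter threshold). That threshold favours peaks of high fold, and the median fold of all peaks under it was not computed. The share with a fold of at least 5 lay between 33.3% and 60%. All 8 peaks were in the cleaned list under the 3 overlap rules, but that list held 21354 peaks, against 21361 in the whole list. Bins of 24 kb and 80 kb, chosen after seeing the data as were those of 40 kb, held a summit in 11.7% and 27.3% of cases. No paired analysis was possible because there is 1 sample of each kind. With 1 ChIP pool and 1 combined control, the spread between libraries is not known.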
